A study of Mus musculus with 69 samples.

Results

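The genes described are 9 that make, break down or move heme and iron. They were picked by symbol from the 24538 symbols that each deposited count file lists: Alas1 and Fech for heme synthesis, Hmox1 and Hmox2 for heme breakdown, Tfrc, Trf and Slc11a2 for iron uptake, Fth1 for iron storage and Slc40a1 for iron export. All 9 had enough counts to be tested in every comparison. RNA of whole perfused kidney was sequenced from NZB/W F1 mice, a lupus-prone hybrid of the NZB and NZW strains whose animals develop immune complex nephritis. The 30 young mice were 12 weeks old, and the 27 nephritic mice were 30 to 45 weeks old, with proteinuria that had started at 300 mg/dl. The 8 remission mice were 36 to 50 weeks old when given cyclophosphamide, CTLA4Ig and anti-CD40L after onset. They were collected 8 weeks later with proteinuria of at most 30 mg/dl. Young and nephritic mice were collected at 6 zeitgeber times (ZT0, 4, 8, 12, 16 and 20, in hours from lights on), and remission mice at ZT0 and ZT12. Age and disease cannot be told apart in these groups, nor treatment and age in the remission mice, and the remission libraries made up a separate sequencing run.

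Heme is built in a chain of steps that starts in the mitochondrion with aminolevulinate synthase (Alas1 outside red cell precursors) and ends there with ferrochelatase (Fech), which inserts the iron. Heme oxygenases open the ring and release iron, carbon monoxide and biliverdin, Hmox1 as the inducible form and Hmox2 as the constitutive one. Transferrin-bound iron enters cells through the transferrin receptor and leaves endosomes through Slc11a2 (DMT1), is stored in ferritin, and leaves the cell through ferroportin (Slc40a1). In kidney the proximal tubule takes up filtered iron, and heme synthesis supplies its many mitochondria and cytochromes.

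Iron regulatory proteins bind hairpins called iron-responsive elements in the untranslated regions of several of these mRNAs, which holds back translation when the hairpin is in the 5′UTR and protects the mRNA when it is in the 3′UTR. The elements found in the members are shown because the 3 messages that hold them encode proteins that store, export and take up iron. The letters searched are strict, and elements known to differ from them, such as that in the 3′UTR of one form of Slc11a2, are not found this way. The search took a C, a stem of 5 bases, the loop CAGTGN and 5 bases that pair with the stem, G-T pairs allowed, on the sense strand of GENCODE UTRs of GRCm38. In each sequence the loop is in capitals.
Fth1, 5′UTR, chr19:9982733-9982759, plus strand: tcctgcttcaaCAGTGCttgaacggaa
Slc40a1, 5′UTR, chr1:45925466-45925492, minus strand: aacttcagctaCAGTGTtagctaagtt
Tfrc, 3′UTR, chr16:32631220-32631246, plus strand: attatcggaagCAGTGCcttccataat
Tfrc, 3′UTR, chr16:32631599-32631625, plus strand: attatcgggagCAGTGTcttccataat
Tfrc, 3′UTR, chr16:32631664-32631690, plus strand: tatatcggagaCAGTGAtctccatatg
Tfrc, 3′UTR, chr16:32631711-32631737, plus strand: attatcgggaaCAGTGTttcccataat
Of 20873 genes with a 5′UTR, 28 (0.134%) held such an element, and of 21669 with a 3′UTR, 127 (0.586%) did. The other 6 members had no match to these letters. RefSeq promoter windows of GRCm38, around the start site, were read for Alas1, Hmox2, Tfrc and Fth1. None of them held the E-box CACGTG, found in 7.15% of 32851 promoters on either strand, the D-box letters TTATGTAA (0.938%) or TTACGTAA (0.119%), the ROR element letters AGGTCA (16.3%) or the core TGACNNNGC (12.4%). Both Alas1 windows held the palindrome of NRF1, a regulator of mitochondrial genes (0.971% of promoters), at position 29 from one start and -195 from the other, which is the same place in the genome.

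Total counts per mouse ran from 25257530 to 48075977 in young and nephritic mice and from 13311278 to 21849912 in remission mice. No library was identical to another (2346 pairs, 0 identical). The median squared difference, in units of sampling noise, had a median of 25.2 over all pairs. It was lowest for nephritic ZT4 mice RX12LU and RX11RL (1.97), young ZT12 mice CR3LU and CR3LL (2.42) and remission mice s8 and s9 (2.79). Mice ZT12RU and RX12RU, each sequenced again, stood at 4.16 and 5.06 from their own repeats. The repeat of RX11RU (ZT12) was 3.81 from RX11LU (ZT4). Whether any libraries share a mouse was not tested. Remission mouse s9, labelled ZT12, had 27.3 CPM (CPM being reads corrected for sequencing depth) of Arntl, a clock gene, inside the range of the 4 ZT0 mice (22.9 to 28.9) and far from the 3 other ZT12 mice (3.24 to 4.93), so results on remission are given with and without it. Kidney markers were present throughout. Alb, a hepatocyte gene, exceeded 1000 CPM in 5 young and 2 nephritic libraries, and Cyp11b1, an adrenal gene, exceeded 100 counts in 8 young and 1 nephritic library. Of 11 erythroid markers, the 6 globin genes were listed at 0 in every mouse.

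Measured per kilobase of the principal transcript, Fth1 stood far above the other 8 members in young kidney, with a median of 2302 CPM per kb over 30 mice. Alas1 followed at 42.4 CPM per kb, and Slc11a2 (30.1), Hmox2 (28.2), Trf (27.2), Slc40a1 (24.0) and Tfrc (23.5) lay close together, with ranges that overlapped. Fech had 18.8 CPM per kb, and Hmox1 was the lowest at 8.15, with a range of 6.01 to 12.0 that lay under the lowest Fech value of 16.1. In nephritic mice the median of Hmox1 was 15.6 CPM per kb, next to Fech at 15.4 and Tfrc at 15.3.

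In nephritic kidney Hmox1 rose, and Alas1, Fech, Hmox2, Tfrc, Slc11a2 and Fth1 fell, by edgeR's quasi-likelihood F test with Benjamini-Hochberg adjustment over all genes, with time point and sequencing set in the fit. Thus 7 of 9 members passed an adjusted p of 0.05, where 62.1% of all 17521 genes did (28.1% higher, 33.9% lower). The median change of the 9 was -0.37 on the log2 scale, beside -0.03 for all genes. Slc40a1 and Trf did not pass.

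**Figure D1:**
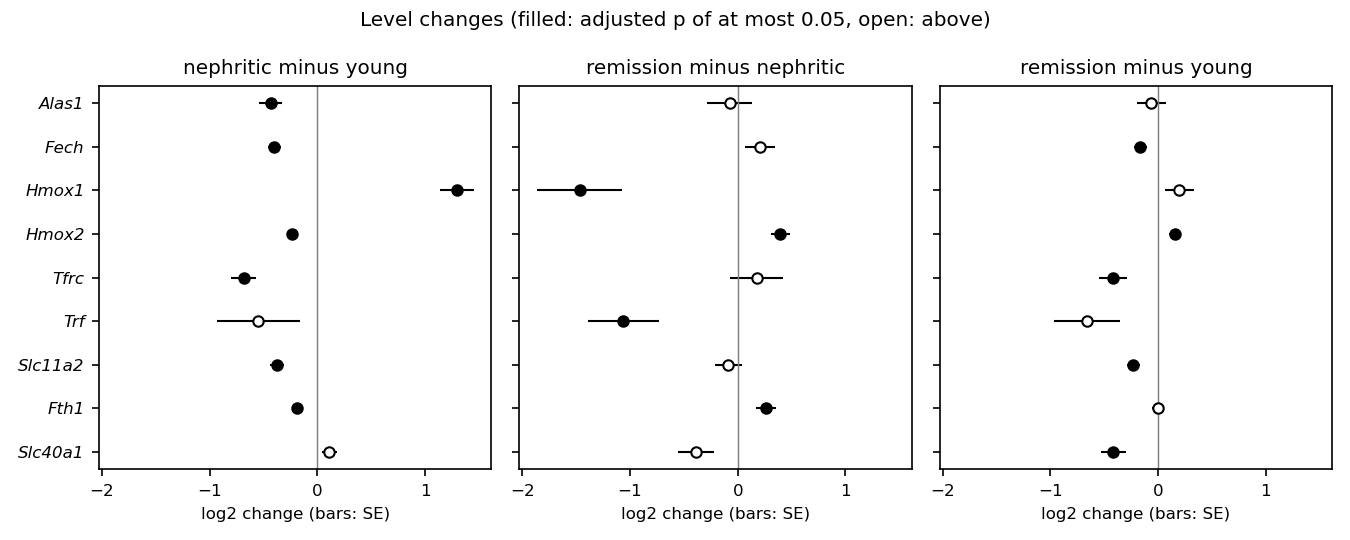
Log2 change in level of each member (points, with SE bars) between nephritic and young, remission and nephritic, and remission and young mice, filled where the adjusted p was at most 0.05. Hmox1 stands alone on the right for nephritic minus young (1.29). For remission minus nephritic it lies farthest left (-1.47), with Trf next (-1.06).

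Alas1, the rate-limiting enzyme of heme synthesis, ran from 101 to 292 CPM in young mice with a median of 144, and from 76.8 to 272 CPM in nephritic mice with a median of 116. Most nephritic mice sat in the lower part of the young range, and 9 of 27 fell under the lowest young mouse. The change was -0.43 (SE 0.11) on the log2 scale (adjusted p = 4.9e-04). Fech, the last enzyme of the chain, lay within a narrow band in young mice, 106 to 140 CPM with a median of 123, and spread from 48.1 to 128 CPM with a median of 101 in nephritic mice. Here 17 of 27 nephritic mice were under every young mouse. Its change was -0.40 (SE 0.06, adjusted p = 1.0e-07).

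Hmox1, the inducible heme oxygenase, had a median of 12.8 CPM in young mice, within 9.43 to 18.9, and of 24.4 CPM in nephritic mice, within 11.6 to 133. The groups hardly overlapped, with 22 of 27 nephritic mice above every young mouse, and the nephritic mice differed 11.5-fold among themselves where young mice differed 2.00-fold. Hmox1 was higher by 1.29 (SE 0.16) on the log2 scale, with an adjusted p of 7.6e-10. Hmox2, the constitutive enzyme, stood at 42.3 to 57.7 CPM in young mice, median 48.8. Nephritic values were 29.6 to 53.3 CPM, median 44.2, and 11 of 27 lay below all young mice. It fell by 0.23 on the log2 scale (SE 0.04, adjusted p = 7.0e-07), opposite to Hmox1. The log2 ratio of Alas1 to Hmox1 counts, which also carries the lengths of both transcripts, was 3.65 ± 0.48 (SD, n = 30) in young mice, 2.08 ± 1.08 (SD, n = 27) in nephritic mice and 3.48 ± 0.50 (SD, n = 8) in remission mice. Its lowest value was -0.57 in nephritic mice and 2.98 in young mice.

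The summed CPM of 10 macrophage markers, cells that also express Hmox1 and Slc40a1, had a median of 180.1 in young mice (108 to 245), 616 in nephritic mice (230 to 1462) and 485 in remission mice (253 to 752). The sum of 8 proximal tubule markers had medians of 20614, 14157 and 14418 CPM in the same groups, with a lowest value of 1905 CPM in a nephritic mouse. No marker of either list was at 0 in every mouse. The part of these cells in the members' changes was not tested, and in whole kidney fewer cells of a type and less RNA per cell cannot be told apart.

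Among the iron uptake genes, Tfrc encodes the receptor that takes in transferrin. Young mice had 74.1 to 157 CPM with a median of 115, and nephritic mice 36.3 to 178 with a median of 74.6. The highest value of all belonged to a nephritic mouse, yet 13 of 27 nephritic mice were below every young mouse. Its change was -0.69 (SE 0.11, adjusted p = 6.9e-07), the largest fall among the members that passed. Slc11a2, the endosomal iron transporter, fell by 0.37 (SE 0.07, adjusted p = 2.2e-06). Its 30 young values lay at 67.7 to 123 CPM around a median of 91.2 and its 27 nephritic values at 42.5 to 101 CPM around 76.0, with 11 of 27 below the young range. Trf, transferrin itself, made mainly in liver, ran from 33.7 to 2414 CPM in young mice and from 45.6 to 331 in nephritic mice, and its values are taken up with those of Alb further on.

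Fth1, the heavy chain of ferritin, is among the abundant kidney messages. Young mice had a median of 3440 CPM between 2428 and 3752, nephritic mice one of 2993 between 2456 and 3612. No nephritic mouse left the young range, but 26 of 27 were under the young median. Fth1 fell by 0.19 (SE 0.05, adjusted p = 3.1e-04). Ferritin genes have near-identical processed copies, so their counts are uncertain. Slc40a1, the iron exporter, had 54.5 to 115 CPM in young mice, median 81.0, while nephritic values were 57.2 to 140, median 88.1. Only 3 of 27 nephritic mice exceeded the young range, and the change of 0.11 (SE 0.07) did not pass (adjusted p = 0.154).

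The young and nephritic libraries fell into 2 sequencing sets, read from the pattern of the mouse titles and the study's sample list rather than from a label of its own, with 6 young and 5 nephritic mice, of ZT0 and ZT12 only, in set 1. Hmox1 was higher by 1.82 within set 1 and by 1.19 within set 2, and the changes of Tfrc (-1.09 and -0.57), Fech (-0.83 and -0.27), Alas1 (-1.07 and -0.26), Slc11a2 (-0.76 and -0.26) and Hmox2 (-0.38 and -0.17) also kept their sign and passed in both. Fth1 changed by 0.07 within set 1 (adjusted p = 0.629) and by -0.22 within set 2 (adjusted p = 1.6e-04). Its adjusted p ran from 3.0e-05 to 0.629 over 11 alternatives. Slc40a1 changed by 0.08 within set 1 and by 0.16 within set 2, where it passed (adjusted p = 0.0383, with a range of 0.0383 to 0.751 over the alternatives). It also passed without young mouse CR3RL (0.16, adjusted p = 0.0360) or without nephritic mouse CRS6LL (0.16, adjusted p = 0.0278).

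The nephritic change was also tested at each time point. Of 54 tests of a member at a time point, 18 passed: 5 of 9 members at ZT0, where 39.5% of all genes passed, 5 at ZT4 (30.3%), 0 at ZT8 (3.66%), 5 at ZT12 (50.0%), 3 at ZT16 (17.7%) and 0 at ZT20 (5.48%). Hmox1 was higher by 1.65 (SE 0.30) at ZT0, 1.07 (SE 0.40) at ZT4, 1.79 (SE 0.31) at ZT12 and 1.34 (SE 0.42) at ZT16, and all 4 passed. At ZT8 its 4 nephritic mice had 11.6, 12.2, 15.2 and 21.5 CPM, next to 9.67 to 13.1 in the 4 young mice, and the change of 0.41 (SE 0.40) did not pass. Alas1 passed at ZT12 (-0.81, SE 0.21) and ZT16 (-0.92, SE 0.29), and at ZT0 its change was -0.05 (SE 0.20). The 5 nephritic ZT0 mice from 89.9 to 121 CPM of Alas1 were joined by a pair at 271 and 272 CPM, beyond the 7 young ZT0 mice at 119 to 220. Tfrc passed at ZT0, ZT4 and ZT12, with its largest change of -1.35 (SE 0.28) at ZT4, where the 4 nephritic mice lay between 51.5 and 57.6 CPM and the 4 young mice between 119 and 157. The injury score described further on differed between times as well: its nephritic median was 3.49 at ZT8 and 5.98 at ZT0, and what part this has in the time point values was not tested. Whether the change differed between time points is the question of the group by time test given further on, which passed for Trf alone of the 9 members.

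**Figure D2:**
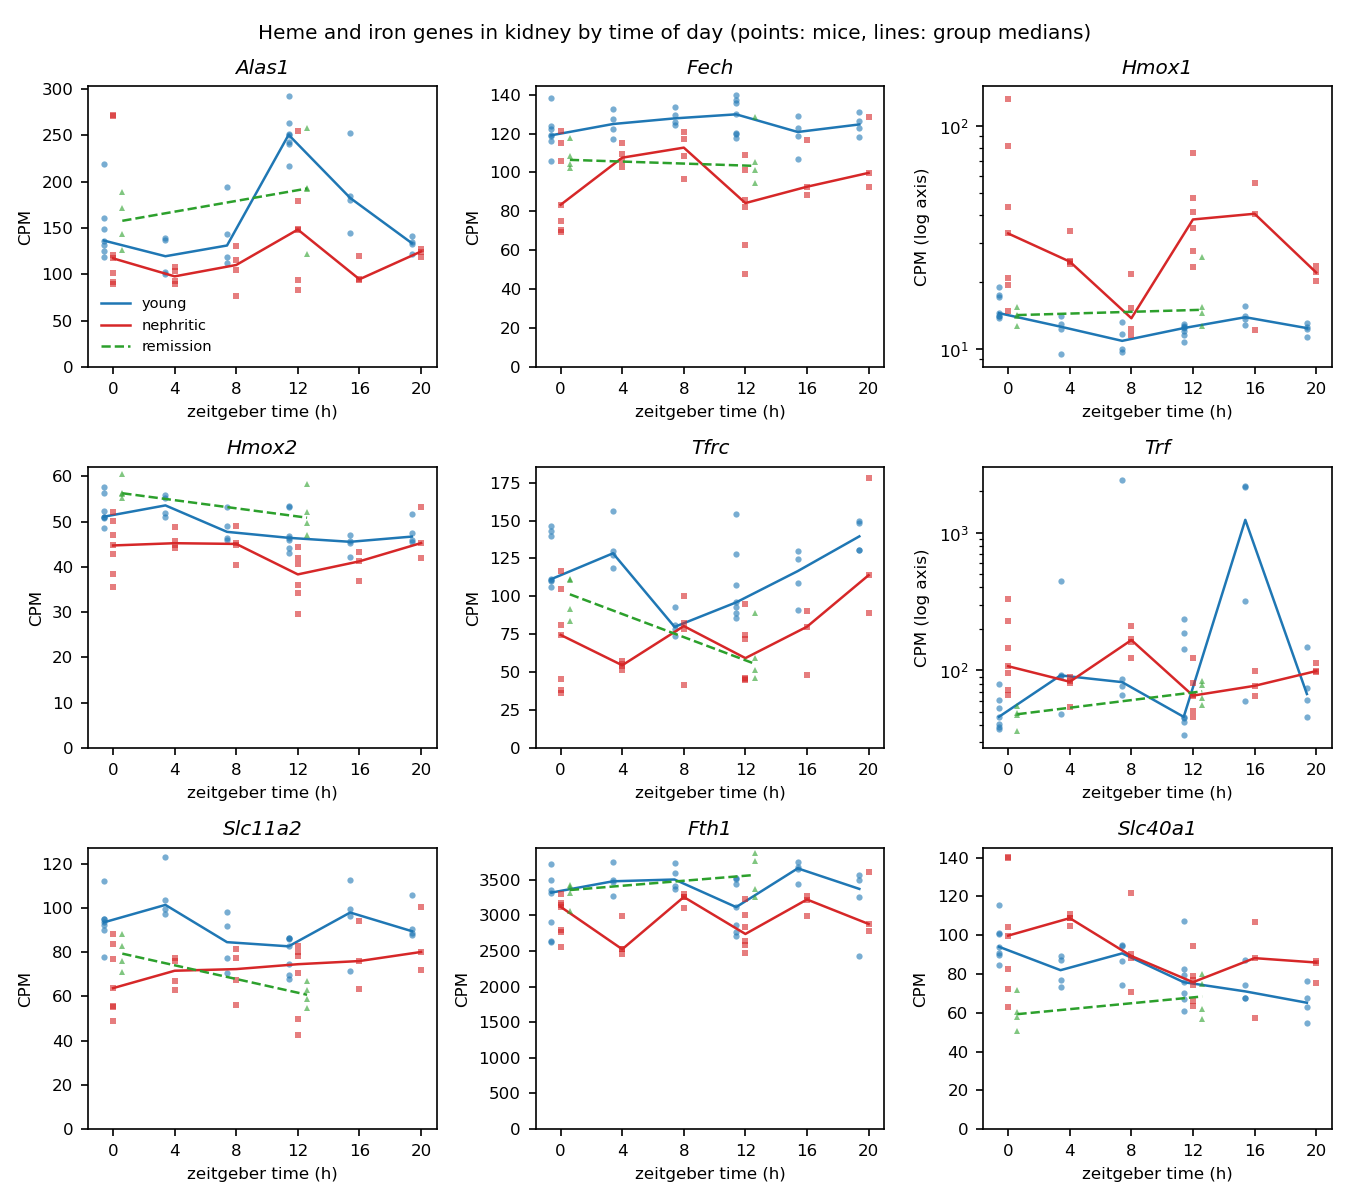
Level of each member in CPM (Trf and Hmox1 on a log axis, others from 0) at each zeitgeber time in hours, with a point per mouse and lines through the group medians of young, nephritic and remission mice. Young Alas1 peaks at ZT12, where all 7 mice lie between 217 and 292 CPM, and Hmox1 of nephritic mice lies above most young mice except at ZT8.

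In young kidney most of the members changed with time of day. By the F test over the 6 time points, 7 of 9 passed, all but Fth1 (adjusted p = 0.537) and Fech (adjusted p = 0.435), where 39.8% of all 16521 genes tested in young mice did. Alas1 had the smallest adjusted p of the 9 (4.2e-05). Its 7 ZT12 mice had 217 to 292 CPM, with a mean of 251 ± 23.0 (SD, n = 7), and its ZT4 mice had 101, 103, 137 and 139 CPM, with a mean of 120 ± 21.1 (SD, n = 4). No ZT4 or ZT20 mouse reached the lowest ZT12 mouse, and the fitted peak and trough differed by 1.00 on the log2 scale. A 24 h cosine gave Alas1 an amplitude of 0.42 (SE 0.07) with the maximum at 13.6 h.

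Tfrc peaked at another time. It was highest at ZT20, with 131, 131, 148 and 149 CPM, and lowest at ZT8, with 74.1, 78.7, 81.0 and 92.9 CPM, so the mice of these time points did not overlap (adjusted p = 5.6e-04). Slc11a2, which works beside it in the endosome, was highest at ZT4 (mean 106 ± 11.8, SD, n = 4) and lowest at ZT12 (79.1 ± 8.28, SD, n = 7), with an adjusted p of 0.0132. Slc40a1 was highest at ZT0 (96.6 ± 10.2, SD, n = 7) and lowest at ZT20 (65.3 ± 9.12, SD, n = 4), with an adjusted p of 0.0104, and only 1 ZT20 mouse, at 76.3 CPM, came near the ZT0 range of 84.8 to 115.

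Of the heme oxygenases, Hmox1 was highest at ZT0 (15.6 ± 2.09, SD, n = 7) and lowest at ZT8 (11.1 ± 1.60, SD, n = 4), with an adjusted p of 0.00506. Hmox2 was highest at ZT4 (53.5 ± 2.38, SD, n = 4) and lowest at ZT16 (45.1 ± 2.04, SD, n = 4), with an adjusted p of 0.0148. The call of Hmox2 was lost without the 8 young libraries over 100 counts of Cyp11b1 (adjusted p = 0.283) and without those over 1000 CPM of Alb (adjusted p = 0.119). Fech passed when young mouse ZT00 was left out (adjusted p = 0.0393), with a range of 0.0393 to 0.619 over the 30 mice left out in turn.

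In nephritic kidney 2 of 9 members passed over the 6 time points, Alas1 (adjusted p = 0.0174) and Trf (adjusted p = 0.0111), where 21.6% of all 16872 genes did. Alas1 was highest in the nephritic mice of ZT0 (152 ± 82.5, SD, n = 7) and ZT12 (151 ± 62.6, SD, n = 6) and lowest at ZT4, where the values were 90.0, 92.6, 103 and 108 CPM. The 24 h cosine had an amplitude of 0.13 (SE 0.15), and a fit of that cosine alone did not pass (adjusted p = 0.851). Nor did the F test of Alas1 without sequencing set in the fit (adjusted p = 0.313), where set 1 held only ZT0 and ZT12 mice. For Tfrc, the F test did not pass (adjusted p = 0.149). Its highest nephritic time point was ZT20, with 89.3, 114 and 178 CPM, and its lowest ZT4, with 51.5, 53.9, 55.2 and 57.6 CPM. Without the 2 nephritic libraries over 1000 CPM of Alb, Hmox2 (adjusted p = 0.0147), Tfrc (0.0323) and Fech (0.0438) passed too, with 42.8% of all genes passing in that fit.

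A call in young mice and none in nephritic mice does not show a different time pattern, so the terms of group by time were tested. They passed for 1 of 9 members, Trf (adjusted p = 0.0195), against 6.27% of all 17521 genes. Tfrc had an adjusted p of 0.145, Alas1 0.229 and Hmox1 0.236, and the other 5 lay between 0.320 and 0.696. For the ZT0 to ZT12 step alone, Alas1 changed by -0.76 (SE 0.13) in young mice (adjusted p = 1.0e-04) and by 0.11 (SE 0.21) in nephritic mice. The difference between these steps was 0.75 (SE 0.29), with an unadjusted p of 0.0122 and an adjusted p of 0.181, where 1.25% of genes passed.

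Trf was the member whose values rested most on single libraries. The 30 young mice averaged 315 ± 663 CPM (SD) and the 27 nephritic mice 111 ± 63.6 CPM (SD), while its median was lower in young mice (69.9) than in nephritic mice (94.8). The 5 highest young mice had 316, 446, 2156, 2175 and 2414 CPM, 3 of them from ZT16 and the others from ZT4 and ZT8. They were the young libraries over 1000 CPM of Alb. At or under that limit the mean of Trf was 77.5 ± 50.2 CPM for young and 97.6 ± 40.2 CPM for nephritic kidneys (SD, n = 25 each). Across mice, log2 CPM of Trf and Alb correlated in young mice with Pearson's r = 0.97 and Spearman's rho = 0.97 (n = 30), and in nephritic mice with r = 0.83 and rho = 0.88 (n = 27). Each of the 4 relations tested, these and those at or under the limit (r = 0.94 and r = 0.78), had a permutation p of 1e-05, also after adjustment, the smallest that 100000 resamples give. Leaving out the 2 mice farthest from the median of Alb gave r = 0.95 in young and r = 0.85 in nephritic mice.

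**Figure D3:**
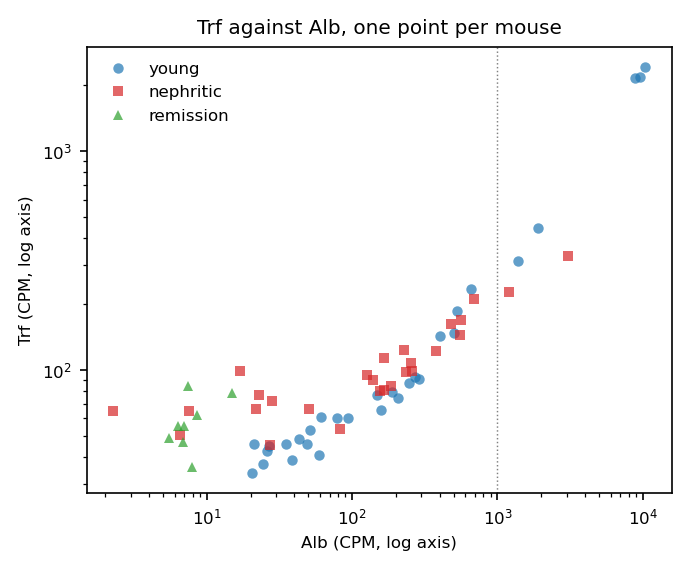
Trf against Alb in CPM on log axes with a point per mouse, and a dotted line at 1000 CPM of Alb. Both groups lie along one rising band, with 5 young and 2 nephritic mice to the right of the line and all 8 remission mice at the low end of Alb.

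The level of Trf changed by -0.55 (SE 0.39) between nephritic and young mice (adjusted p = 0.215), and by 0.34 (SE 0.18, adjusted p = 0.108) without the libraries over 1000 CPM of Alb. It was higher by 0.65 (SE 0.19, adjusted p = 0.0140) within set 1, which held none of them, against -0.86 within set 2. At ZT16 its change was -3.89 (SE 0.96), where 3 of 4 young mice were over the limit. The test of a different time pattern of Trf did not pass without those libraries (adjusted p = 0.163), without those over 100 counts of Cyp11b1 (0.104) or with Alb in the fit (0.275). Over all 11 alternatives that adjusted p ran from 0.00157 to 0.275. The variation of Trf over time in young mice was lost in the same way (adjusted p = 0.444 without the libraries and 0.702 with Alb in the fit). In nephritic mice it passed without the 2 libraries over the limit (adjusted p = 0.0068), but not with Alb in the fit (adjusted p = 0.0903) or by the cosine alone (adjusted p = 0.338). Without those libraries the ZT8 mice had 124, 162, 170 and 211 CPM, above all of the mice at ZT4, which had 53.9 to 90.0 CPM.

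In remission Hmox1 was lower and Hmox2 higher than in nephritis. Against nephritic mice of ZT0 and ZT12, 4 of 9 members passed, where 31.1% of all 16344 genes did (14.6% higher, 16.5% lower). Hmox1 was 12.6, 14.1, 14.2 and 15.4 CPM in the ZT0 remission mice and 12.7, 14.5, 15.4 and 25.7 CPM at ZT12. The 13 nephritic mice ran from 14.8 to 133 CPM (median 34.9), and 5 of the 8 remission mice were under all of them. The change was -1.47 (SE 0.39, adjusted p = 0.00806), and it passed whichever mouse was left out, s9 included. Hmox2 was 47.0 to 60.5 CPM in remission mice (median 55.6) and 29.6 to 52.2 CPM in nephritic mice (median 42.0). It was higher by 0.39 (SE 0.09, adjusted p = 0.00246), under each of 9 alternatives. Fth1 was higher by 0.26 (SE 0.09, adjusted p = 0.0417), from 2470 to 3297 CPM in nephritic mice to 3063 to 3872 CPM, but the call was lost when any of 13 of the 21 mice was left out, s9 among them (adjusted p = 0.0546, with 0.0964 as the highest value, without nephritic mouse RX9RL). Trf fell by 1.06 on the log2 scale (SE 0.33, adjusted p = 0.0194), and this passed whichever mouse was left out, s9 included. Its change was 0.48 (adjusted p = 0.315) with Alb in the fit. Remission mice had 5.49 to 14.8 CPM of Alb. Alas1 (-0.07, SE 0.21), Fech (0.21, SE 0.14), Tfrc (0.17, SE 0.25), Slc11a2 (-0.09, SE 0.13) and Slc40a1 (-0.39, SE 0.17) did not pass. Slc40a1 passed without nephritic mouse CRS60 (adjusted p = 0.0495) or without remission mouse s10 (adjusted p = 0.0468). With the run of the remission mice as a covariate, bridged by the 4 libraries labelled as repeats in that run, 4 of 9 members passed, beside 23.6% of genes, but not the same 4. This fit took the 39 libraries of ZT0 and ZT12, young mice included. It had no term for the mouse, so both libraries of each re-sequenced mouse counted as separate samples. The bridge takes each repeat to be the mouse it is named after. That was not tested, and the repeat of RX11RU was 3.81 from RX11LU, as given above. Hmox1 (-1.20, adjusted p = 0.0193) and Hmox2 (0.35, adjusted p = 0.0105) held, Tfrc (0.89, SE 0.28, adjusted p = 0.0224) and Slc40a1 (-0.50, SE 0.18, adjusted p = 0.0415) passed, and Trf (-0.98, adjusted p = 0.119) and Fth1 (0.17, adjusted p = 0.254) did not.

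With the covariates chosen after the data were seen, the Hmox1 change in remission was -0.49 (adjusted p = 0.666) with Alb in the fit and -1.32 (adjusted p = 0.124) with Alas2, an erythroid gene that ran from 0.49 to 51.9 CPM in remission mice. It was -1.21 (adjusted p = 0.0507) by limma-voom. Over 9 alternatives the adjusted p of Hmox1 ran from 5.6e-04 to 0.666. Hmox2 held with Alb (adjusted p at most 0.0447 over the 9).

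Against young mice of ZT0 and ZT12, remission mice were lower in Tfrc (-0.42, SE 0.13, adjusted p = 0.0117), Slc40a1 (-0.42, SE 0.12, adjusted p = 0.00564), Slc11a2 (-0.23, SE 0.06, adjusted p = 0.0046) and Fech (-0.16, SE 0.06, adjusted p = 0.0246), and higher in Hmox2 (0.16, SE 0.05, adjusted p = 0.0162). These are 5 of 9 members, against 51.7% of all 15982 genes (26.0% higher, 25.6% lower). Slc40a1 had from 50.4 to 79.8 CPM (median 61.1) in remission mice, all 8 below the median of 87.1 CPM in young mice of these times. Hmox1 (0.20, SE 0.14, adjusted p = 0.234), Alas1 (-0.06, SE 0.14) and Fth1 (0.00, SE 0.06) did not pass. With the run covariate 0 of 9 members passed (13.8% of genes did). There the changes of Slc40a1 (-0.43, SE 0.19, adjusted p = 0.127), Slc11a2 (-0.29, SE 0.16, adjusted p = 0.231) and Fech (-0.15, SE 0.16, adjusted p = 0.610) were close to those above with larger SE, while those of Tfrc (0.04, SE 0.27) and Hmox2 (0.05, SE 0.10) were nearer to 0. The call of Fech was lost without any one of young mouse ZT00 (-0.10, adjusted p = 0.133) and remission mice s4, s9, s12 and s14 (adjusted p = 0.0570, 0.0508, 0.0522 and 0.0652). Without the run covariate, Tfrc, Slc40a1, Slc11a2 and Hmox2 passed whichever of the 22 mice was left out, s9 included.

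Between ZT0 and ZT12 in remission mice as labelled, 0 of 9 members passed, as did 0 of 14451 genes by edgeR, with 1449 at an unadjusted p under 0.05, 24 by DESeq2 and 0 by limma-voom. Tfrc had 83.5, 91.9, 111 and 111 CPM at ZT0 and 46.4, 51.7, 59.5 and 88.8 CPM at ZT12. The ZT12 mouse that overlaps the ZT0 mice is s9. The change was 0.70 (SE 0.20, adjusted p = 0.487), and 0.93 without s9 (adjusted p = 0.0180), where 1.41% of genes passed. Alas1 had 126, 144, 172 and 189 CPM at ZT0 and 122 (s9), 192, 193 and 258 CPM at ZT12, a change of -0.27 (SE 0.20) that did not pass, also without s9 (adjusted p = 0.220). In young mice the same step passed for 4 of 9 members (14.5% of genes, 7.24% higher and 7.30% lower): Alas1, Hmox1 (0.38, SE 0.09, adjusted p = 0.00412), Slc40a1 (0.32, SE 0.10, adjusted p = 0.0328) and Hmox2 (0.15, SE 0.05, adjusted p = 0.0476). The call of Hmox1 was lost within set 2 (0.33, adjusted p = 0.0763), and that of Hmox2 without any of 18 of the 30 mice. That of Slc40a1 was lost without any of 7 ZT0 and ZT12 mice (ZT0RU, ZT0LU, ZT00, ZT12RL, ZT12LU, ZT120 and CR3LU, adjusted p 0.0530 to 0.0935). In nephritic mice it passed for 1 of 9 (3.92% of genes, 1.54% higher), Trf, which was higher at ZT0 by 1.05 (SE 0.27, adjusted p = 0.0333), and not without CRS6LL, HIL5RU, RX10LU, RX8RU or RX9RL (adjusted p 0.0533 to 0.0879). The 2 nephritic libraries over 1000 CPM of Alb, RX10LU and RX12RU, were both of ZT0, with 331 and 227 CPM of Trf. This step was not fitted without both of them or with Alb.

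Nephritic kidneys differ in how injured they are. An injury score, the mean log2 CPM of the injury genes Vcam1, Timp1 and Lcn2, ran from 2.07 to 7.43 in the 27 nephritic mice (median 5.16), and a slope per unit of score was fitted for every gene with time point and set. The slope passed for 8 of 9 members, all but Trf, where 48.7% of all 16872 genes passed (24.8% higher, 23.9% lower). Hmox1 was higher by 0.38 (SE 0.07, adjusted p = 5.4e-05) and Slc40a1 by 0.15 (SE 0.02, adjusted p = 1.7e-05) for each unit. Slc40a1 thus varied with injury among nephritic mice while its level against young mice did not pass. Tfrc had the steepest fall, -0.29 per unit (SE 0.03, adjusted p = 2.6e-08), followed by Alas1 (-0.15), Fech (-0.14), Slc11a2 (-0.13), Hmox2 (-0.09) and Fth1 (-0.05, adjusted p = 0.0363). The Fth1 slope lost its call without any of 10 of the 27 mice. A macrophage score, the mean log2 CPM of Adgre1, Csf1r and Cd68, was also fitted in place of the injury score. Against it 2 of 9 members passed, Tfrc (-0.76 per unit) and Fech (-0.40), with 9.58% of genes. Hmox1 (0.54, adjusted p = 0.364) and Slc40a1 (0.28, adjusted p = 0.201) did not pass, nor did the rest. Lcn2 belongs to both the score and the iron uptake list.

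**Figure D4:**
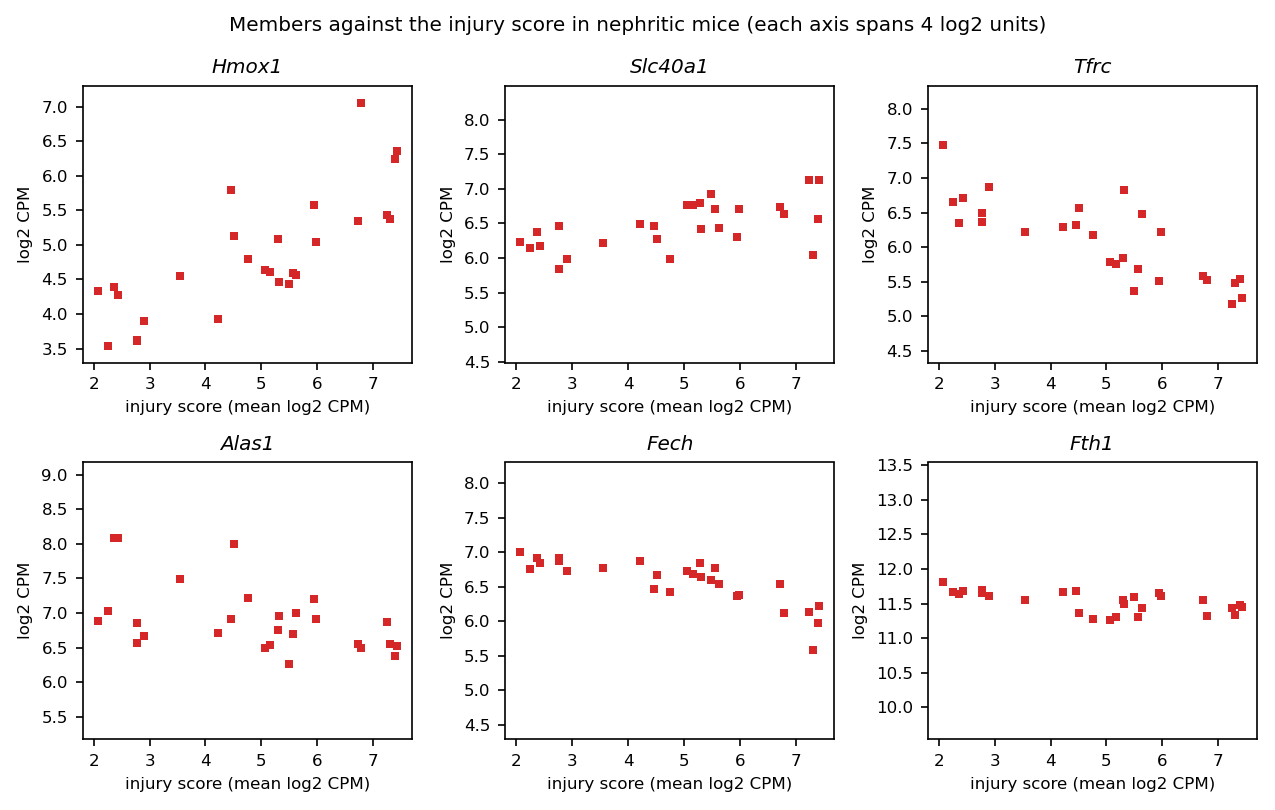
Log2 CPM of 6 members against the injury score (mean log2 CPM of 3 injury genes) in the 27 nephritic mice, a point per mouse, each vertical axis spanning 4 log2 units. Hmox1 and Slc40a1 climb with the score, and Tfrc, Alas1 and Fech go down, Tfrc most steeply.

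The rest of the heme and iron pathway went mostly down in nephritic kidney. Of 63 genes tested over 8 lists outside the 9 members, 48 passed, 8 higher and 40 lower, with a median of -0.26 beside -0.03 for all genes, of which 62.1% passed (28.1% higher, 33.9% lower). The counts of single lists that follow include the members. In heme synthesis 8 of 9 genes were lower and 0 higher, among them Uros (-0.37, SE 0.05), which closes the tetrapyrrole ring, and Urod (-0.26, SE 0.04), which decarboxylates it. Alas2 did not pass. In heme breakdown all 4 passed, with Hmox1 the single gene higher and both biliverdin reductases lower (Blvra by -0.29, SE 0.05, Blvrb by -0.20, SE 0.06). Of 8 heme carriers tested, 2 were higher and 4 lower, including the heme chaperone Pgrmc1 (-0.41, SE 0.05) and the proton-coupled transporter Slc46a1 (-0.48, SE 0.06), known for folate and also described for heme. Slc46a1 was also higher in remission than in nephritic mice (0.69, SE 0.14, adjusted p = 0.00107).

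In iron uptake 9 of 16 genes were lower and 2 higher. The 2 that rose were Lcn2, whose siderophore-binding protein is made by injured tubule and neutrophils (4.95, SE 0.43), and Slc11a1, the phagosomal metal transporter of macrophages (2.71, SE 0.15). In storage 3 of 5 were lower, with Fth1 joined by the iron chaperone Pcbp2 (-0.21, SE 0.04) and the ferritinophagy receptor Ncoa4 (-0.33, SE 0.11). Of 6 export genes 4 were lower, among them the ferroxidase Heph (-0.38, SE 0.05), and 1 was higher, the ferroxidase Cp (1.41, SE 0.23). The regulators had 3 higher and 5 lower of 11, led by Hfe (0.62, SE 0.06) and by the iron regulatory protein Aco1, which binds the elements shown above (-0.66, SE 0.08). Of 13 genes of mitochondrial iron handling 10 were lower and 0 higher, with Abcb8 (-0.38, SE 0.04) and the cysteine desulfurase Nfs1 (-0.49, SE 0.06) first by p.

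**Figure D5:**
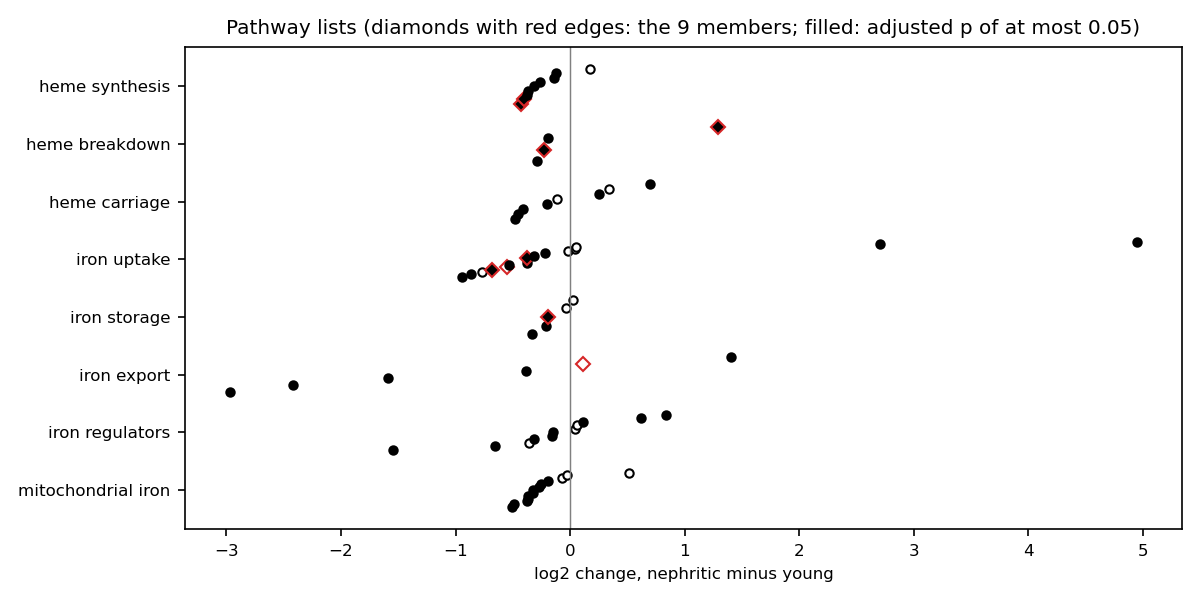
Log2 change between nephritic and young mice for each tested gene of 8 heme and iron lists, a point per gene, with the 9 members as red-edged diamonds and filled points where the adjusted p was at most 0.05. Most points lie left of 0, and Lcn2 and Slc11a1 in iron uptake lie farthest right.

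Over time points in young mice 38 of 71 genes of the lists passed, members included, where 39.8% of all genes did, and the 5 outside the members with the smallest p were Ncoa4 (adjusted p = 5.3e-07), the ferritin light chain Ftl1 (2.8e-05), the second enzyme of heme synthesis Alad (4.7e-05), Bmp6, which signals iron stores to hepcidin (6.6e-05), and Lcn2 (2.3e-04). In nephritic mice 17 of 71 passed, beside 21.6% of all genes, and the time pattern differed for 7 of 72, beside 6.27%. Ncoa4 was lower at ZT0 than at ZT12 in young mice (-0.92, SE 0.11, adjusted p = 5.6e-07), the same direction as Alas1.

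As a description over the 57 young and nephritic mice, the genes whose log2 CPM was most like that of Hmox1 were Ywhah (Pearson's r = 0.92), Dusp3 (0.92) and Stat3 (0.90). For Alas1 they were Slain2 (0.84), Cdr2 (0.83) and Herpud1 (0.82), and for Tfrc Slc16a7 (0.88), Ndrg3 (0.88) and Acsl3 (0.87). These mice share group, time point and set differences, and for Hmox1 the likeness to Stat3 was 0.30 within young mice and 0.86 within nephritic mice. Among the members themselves, the 27 nephritic mice had r = 0.87 between Hmox2 and Fech, 0.77 between Tfrc and Slc11a2, -0.74 between Hmox1 and Fech and -0.65 between Tfrc and Slc40a1.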

How the data were processed

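RNASeq counts of 65 NZB/W kidneys were used, with 4 repeat libraries only in alternatives that name them. The authors aligned paired reads to mm10 (HISAT in the submitters' processing notes) and deposited unnormalized counts, as integers for every gene symbol. The use of strand in counting was not given in the sources used here. A gene entered a fit if its counts summed to 100 or more, and was tested with edgeR 4.0.16 (R 4.3.3) by quasi-likelihood F tests on TMM-scaled counts, with Benjamini-Hochberg adjustment over all genes and a threshold of 0.05. Fits held time point and sequencing set, the set being read from title patterns and the study's sample list. CPM are TMM-scaled, and log2 CPM had a prior count of 2. DESeq2 1.42.0 and limma 3.58.1 were alternatives. The scripts were tested on simulated data. Among 24538 symbols, 15 with empty cells were left out.

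The members, lists and tests were chosen with earlier results of these data known. The 9 members are always named. Outside them, each list names the 2 genes with the smallest p for nephritic against young and all lists together the 5 with the smallest p over time in young mice, and the rule named the 3 genes most correlated with Alas1, Hmox1, Tfrc and Slc40a1. Fits with Alb or Alas2, without libraries over 1000 CPM of Alb, of set 1 alone and of ZT0 and ZT12 mice alone were chosen after seeing the data. Where nothing says that libraries came from separate litters or cages, p-values measure the spread between mice. UTRs came from GENCODE and promoters and positions from RefSeq, both of GRCm38. Counts limit precision by counting error only in part, since reads carried no molecular identifiers. The genes whose pattern was most like that of Slc40a1 are not reported here.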

Additional observations from a re-analysis of the deposited data

Results flagged for a closer look

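Of 108 groups of 4 to 10 mice examined (9 genes in 12 groups), 3 held a mouse that stood apart from the others of its group by Dixon's criterion, where chance gives about 1 in 20. Among young ZT8 mice, ZT8LU had 2414 CPM of Trf and the others 65.8 to 87.0 CPM, and it is one of the libraries over 1000 CPM of Alb. Nephritic ZT4 mouse RX1OLL had 33.7 CPM of Hmox1 where the others had 24.1 to 24.8, and 2990 CPM of Fth1 where the others had 2456 to 2526. Without RX1OLL the calls of both genes between nephritic and young mice held. Trf was also the member whose time pattern differed between nephritic and young mice (adjusted p = 0.0195, edgeR), a call that was lost without the libraries over 1000 CPM of Alb.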

How the results depend on the processing

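Of 819 member values under 18 alternatives, 745 kept their side of the threshold, 59 lost the call and 10 gained it. The other 5 changed sign with a call in the main or the alternative fit. Changes of sign with no call in either fit are among the 745. Tests over several time points have no sign. The 5 sign changes with a call were Trf (0.65) and Fth1 (0.069) for nephritic against young within set 1, Trf with Alb in the fit for remission against nephritic (0.48) and against young mice (1.46), and Tfrc with the run covariate for remission against young mice (0.040). No alternative moved the 7 members called for nephritic against young beyond 7 to 8, or the 7 called over time in young mice beyond 5 to 7. The 2 members called over time in nephritic mice became 1 without the set covariate (Alas1 was lost) or with Alb (Trf was lost), 0 with a cosine alone and 5 without libraries over 1000 CPM of Alb. The 1 member with a different time pattern became 0 with limma-voom, the cosine, Alb in the fit, the ZT0 to ZT12 contrast alone, or without the libraries over the Alb or Cyp11b1 limits. Remission against nephritic mice went from 4 to 1 with Alb or Alas2 in the fit, and against young mice from 5 to 0 with the run covariate, 3 with Alb and 2 with Alas2. The 1 member called for ZT0 against ZT12 in nephritic mice became 0 in set 2 alone, without the set covariate and in a fit of ZT0 and ZT12 mice alone. The 0 in remission mice became 1 without s9, and the 8 slopes became 2 with the macrophage score. The cause was not tested.

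Leaving out each mouse in turn gave 7 to 8 members called for nephritic against young and over time in young mice, 2 over time in nephritic mice, 1 for a different time pattern, 3 to 5 for remission against nephritic, 4 to 6 for remission against young, 2 to 5 for ZT0 against ZT12 in young mice, 0 to 1 in nephritic mice, 0 to 1 in remission mice and 7 to 8 for the injury slope. The 2 in young mice came without any of ZT0RU, ZT0LU, ZT12RL, ZT12LU and ZT120. For that step Tfrc passed without CR3LU (0.30, adjusted p = 0.0427), Fech without ZT00 (-0.14, adjusted p = 0.0425) and Slc11a2 without any of 8 mice (0.25 to 0.29). Trf passed for remission against young without ZT0RU (-0.77, adjusted p = 0.0418) or ZT12RU (-0.77, adjusted p = 0.0295).

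No paired analysis was possible because the labels give no replicate numbers, and those used only name mice in accession order. Some titles share a prefix whose meaning the labels do not give, and no prefix is shared between groups. No fit was blocked on these prefixes. A hemoglobin covariate was not run, since globins were listed at 0. Groups of 3 to 7 mice limit the tests at single time points and in remission, Alb and remission go together, so the fit with Alb compares few overlapping mice, and set 1 holds only ZT0 and ZT12.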
